A study of Mus musculus with 10 samples.

Results

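Open chromatin of differentiated adipocytes was compared after 3 days and after 4 hours of forskolin, to see which sites closed and which opened as the exposure went on. The comparison used 4 of the 10 libraries of the study: S7 and S8 (forskolin for 3 days) against S3 and S4 (forskolin for 4 hours). They were chosen by their labelled treatment, and every peak of the deposited table entered, of which 118954 of 122984 had enough counts to be tested. The cells were MAP cells, an immortalized line of mouse adipocyte progenitors, turned into adipocytes with insulin, isobutylmethylxanthine (a phosphodiesterase inhibitor), dexamethasone and 1 µM rosiglitazone. Insulin and rosiglitazone were then continued for another 2 days. All groups received that medium, so rosiglitazone, an agonist of PPARγ, was part of the history of the forskolin cells and of the controls. Treatment began at day 7 to 8 of differentiation, and the other groups, each of 2 libraries, were control (S1, S2), forskolin for 1 day (S5, S6) and rosiglitazone for 3 days (S9, S10). A forskolin dose and the harvest day of the controls are not given in the sources used here, and the time in forskolin cannot be told apart from the added time in culture. The material is 1 cell line, 10000 nuclei sorted on a DNA dye went into each library, and separate cultures for the 2 libraries of a group are not stated. The p-values therefore measure the spread between these libraries, which may be technical.

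Forskolin switches on adenylyl cyclase directly, without a receptor, and the cAMP formed activates protein kinase A. In adipocytes this pathway carries the signal of noradrenaline: it drives lipolysis, phosphorylates CREB and induces immediate-early genes such as Fos and Nr4a1. With time it is damped, since phosphodiesterases degrade cAMP. AP-1, the dimer of Fos and Jun proteins, and CREB bind DNA motifs that are close relatives. ATAC-seq counts where a transposase can cut, so it reads the opening of promoters and enhancers, not RNA. In bulk nuclei a lower count can mean fewer nuclei with the site open or less opening in each, and these cannot be told apart.

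The 4 libraries held 15062740 (S3), 16519865 (S4), 16287650 (S7) and 13031199 (S8) counts in peaks. S8 stood apart from its partner. The chi-square of counts over its degrees of freedom was 3.31 for S7 against S8, and 2.18 to 2.35 for the pairs of the other groups. Peaks within 1 kb of either end of a protein-coding gene (gene-end peaks) took 45.0% of the counts of S8, 41.3% of S7, 41.1% of S3 and 42.0% of S4. The 13 peaks with the highest counts took 5.29% of S8 and 3.59% to 4.14% of the other 3. For many results, values that turned on S8 or on another single library are given in the text, with the value without it.

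More sites closed than opened between 4 hours and 3 days. With edgeR's quasi-likelihood test and an adjusted p (Benjamini-Hochberg) below 0.05 as the call, 8024 peaks fell (6.75% of those tested) and 5214 rose (4.38%). Of these, 3872 and 2494 changed at least 2-fold. Levels are in CPM, which scales each count to the total over all peaks of its library and to the library factors of the test. The median fallen peak held 7.82 and 7.31 CPM in the 4-hour libraries and 3.95 and 3.60 in the 3-day libraries. The median risen peak held 3.02 and 3.14 CPM at 4 hours and 6.25 and 6.09 at 3 days. These levels chose the peaks and are given as a description. The groups that had no part in the choice lay on the 3-day side: the median fallen peak stood at 3.23 and 3.06 CPM in the controls, and the median risen peak at 5.60 and 5.78. The counts depended on the libraries. Without S3 they were 3176 fallen and 2065 risen, without S4 5023 and 3052, and without S8 3946 and 3246. DESeq2 called 4018 and 2411, and falls outnumbered rises in every setting run on peaks.

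**Figure D1:**
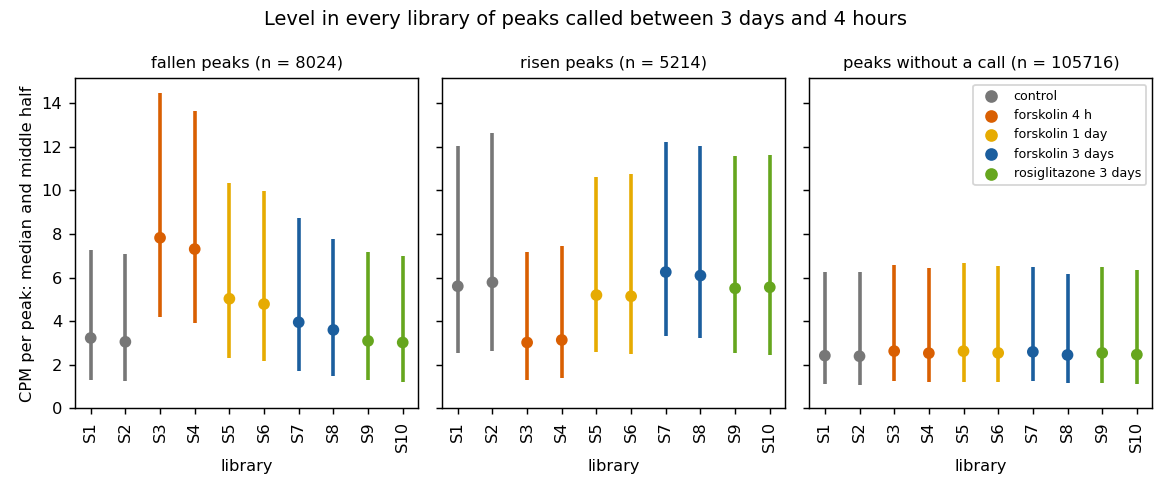
CPM per peak (vertical axis, linear) in each of the 10 libraries (horizontal axis) for the fallen, the risen and the uncalled peaks; points are medians over peaks and bars run from the lower to the upper quartile, colours mark the groups. Fallen peaks are highest in S3 and S4 (7.82 and 7.31) and reach 3.95 and 3.60 in S7 and S8, risen peaks are lowest in S3 and S4, and uncalled peaks lie between 2.40 and 2.63 in all libraries.

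The 1-day libraries lay between the times compared, at 5.03 and 4.79 CPM for the median fallen peak and 5.20 and 5.14 for the median risen peak. Forskolin for 1 day against control shares no library with the comparison of 3 days and 4 hours. In it, 3263 of the 8024 fallen peaks had risen (40.7%, against 12.9% of all tested peaks) and 193 had fallen. Of the 5214 risen peaks, 1140 had fallen at 1 day (21.9%, against 9.84% of all tested peaks) and 461 had risen. Peaks that closed towards 3 days were thus more often above control at 1 day than peaks in general, and peaks that opened were more often below it. The latter share was 36.9% without S7. In rosiglitazone for 3 days against control, which shares no library with the comparison either, 404 of the fallen peaks had risen (5.03%, against 3.22% of all) and 507 had fallen (6.32%, against 3.35%). Of the risen peaks, 227 had risen with rosiglitazone (4.35%) and 515 had fallen (9.88%). Fallen peaks thus moved with rosiglitazone in both directions at similar shares, and risen peaks more often had lower levels with it than peaks in general.

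Sequence could be read at promoters, for which RefSeq windows of the build GRCm38.p6 were at hand, from 250 bases before to 50 after each annotated start. A tested peak that overlapped a window by at least 150 bases was taken as a promoter peak. Of 9396 such peaks, 89 fell (0.947%) and 219 rose (2.33%). The 250 upstream bases of 6 of them are shown because 5 fell and carry an AP-1 or CRE sequence, and 1, Serpina3i, rose and carries none. Capitals mark the AP-1 motif TGANTCA in Dclk1, Mndal and Ifi203, the CRE motif TGACGTCA in Slc25a25, and the CRE half-site TGACG, here read on the opposite strand as CGTCA, in Nr4a1.
Dclk1: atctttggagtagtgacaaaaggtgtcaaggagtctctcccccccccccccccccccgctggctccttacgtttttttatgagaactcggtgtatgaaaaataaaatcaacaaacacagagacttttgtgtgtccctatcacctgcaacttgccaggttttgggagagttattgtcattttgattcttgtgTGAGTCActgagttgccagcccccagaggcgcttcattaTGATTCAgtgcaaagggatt
Mndal: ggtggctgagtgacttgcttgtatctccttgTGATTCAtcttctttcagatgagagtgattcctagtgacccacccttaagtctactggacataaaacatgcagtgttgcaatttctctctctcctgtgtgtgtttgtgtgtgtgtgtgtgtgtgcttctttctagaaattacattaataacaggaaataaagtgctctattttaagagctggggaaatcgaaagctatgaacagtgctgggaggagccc
Ifi203: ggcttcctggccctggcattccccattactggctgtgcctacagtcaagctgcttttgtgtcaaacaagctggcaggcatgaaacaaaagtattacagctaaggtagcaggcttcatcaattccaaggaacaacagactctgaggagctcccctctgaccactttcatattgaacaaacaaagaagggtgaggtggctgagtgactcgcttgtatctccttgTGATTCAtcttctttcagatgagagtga
Slc25a25: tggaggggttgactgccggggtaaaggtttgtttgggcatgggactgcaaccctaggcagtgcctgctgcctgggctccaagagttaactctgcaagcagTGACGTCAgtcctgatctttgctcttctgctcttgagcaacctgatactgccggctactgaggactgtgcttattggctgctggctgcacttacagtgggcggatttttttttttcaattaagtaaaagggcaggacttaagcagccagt
Nr4a1: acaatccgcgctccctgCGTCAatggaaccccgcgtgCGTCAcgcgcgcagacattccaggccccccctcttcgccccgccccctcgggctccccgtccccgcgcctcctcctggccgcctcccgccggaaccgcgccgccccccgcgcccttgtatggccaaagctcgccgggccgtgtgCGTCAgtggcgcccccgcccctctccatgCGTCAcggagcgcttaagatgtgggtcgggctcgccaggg
Serpina3i: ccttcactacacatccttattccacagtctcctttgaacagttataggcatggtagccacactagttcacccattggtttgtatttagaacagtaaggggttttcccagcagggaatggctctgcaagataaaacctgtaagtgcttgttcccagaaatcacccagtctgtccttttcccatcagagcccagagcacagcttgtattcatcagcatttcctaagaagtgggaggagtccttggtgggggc

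The first of these windows, at an annotated start of Dclk1, which encodes a microtubule-associated kinase (chr3:55461478-55461727, plus strand), has 2 AP-1 matches, 59 and 20 bases before the start. Its peak held 21.6 CPM in both 4-hour libraries and 9.67 and 9.89 at 3 days (log2 change −1.14, SE 0.17, adjusted p = 1.13e-06), against 9.09 and 4.79 in the controls. Mndal (chr1:173880188-173880437, minus strand) and Ifi203 (chr1:173942673-173942922, minus strand) are neighbouring genes of the interferon-inducible p200 family. Their windows share a stretch of 43 bases that holds the motif, so reads could be assigned to either copy and the values of both are uncertain. The Mndal peak fell from 15.1 and 14.5 to 8.02 and 5.62 CPM, and the Ifi203 peak from 15.4 and 12.9 to 6.13 and 8.70. In all 3 windows both 3-day libraries lay below both 4-hour libraries, as they did at all 8024 fallen peaks.

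Slc25a25 encodes a mitochondrial ATP-Mg/phosphate carrier (chr2:32424067-32424316, minus strand), and its full CRE lies 150 bases before the start. The peak held 49.4 and 48.4 CPM at 4 hours and 30.7 and 26.3 at 3 days (log2 change −0.78, SE 0.12, adjusted p = 3.14e-06), close to the 29.1 and 32.0 of the controls. The window of Nr4a1, an orphan nuclear receptor induced by cAMP (chr15:101266596-101266845, plus strand), has 4 half-sites, the farthest 233 and the nearest 40 bases before the start. Its peak fell from 67.4 and 65.5 to 44.2 and 44.1 CPM (log2 change −0.59, SE 0.12, adjusted p = 0.000176), and the controls had 35.7 and 38.5. Serpina3i, a serine protease inhibitor gene (chr12:104262872-104263121, plus strand), rose instead, from 4.47 and 2.48 to 10.6 and 8.23 CPM (log2 change 1.46, SE 0.24, adjusted p = 8.31e-06). It belongs to a cluster of near-identical copies, so its counts are uncertain too. The calls on these 6 promoter peaks held in all 10 alternative settings, but others like them lost theirs in some. Fallen promoter peaks of Vav3 and Scyl3, with an AP-1 match, kept the call in 7 and 5 settings. That of Ice2, with a CRE, kept it in 6, and the risen one of Cyp2f2 in 9. The 6 shown are thus no measure of how stable such calls are.

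The AP-1 motif TGANTCA, searched on both strands, was in 26 of the 89 fallen promoter windows (29.2%, exact 95% binomial interval 20.1% to 39.8%). It was in 10 of the 219 risen windows (4.57%, 2.21% to 8.24%) and in 524 of all 9396 (5.58%). Its form TGACTCA, which is contained in it, was in 22.5% of the fallen, 4.11% of the risen and 4.27% of all windows. The CRE TGACGTCA was in 3.37% of the fallen, 2.74% of the risen and 3.43% of all. The half-site TGACG, which is part of it, was in 24.7%, 14.2% and 32.3%. The SP/KLF motif GGGCGG was in 35.96% of fallen, 61.2% of risen and 68.4% of all windows, and the median GC content was 53.3%, 61.7% and 62.0%. Base composition thus differed between the sets. Among windows without GGGCGG, 22 of 57 fallen ones (38.6%) and 266 of all 2967 (8.97%) held the AP-1 motif. The share in fallen windows was 15.4% without S8, 46.2% without S3 and 17.7% with offsets trended on level, against a main value of 29.2%. The intervals cover counting error only, and a match is no evidence of binding. The NF-Y motif CCAAT was in 37.1% of fallen, 29.2% of risen and 39.5% of all windows. The NR4A element AAAGGTCA was in 3.37%, 1.37% and 0.841%, from 3, 3 and 79 windows. The C/EBP palindrome TTGCGCAA was in 1 fallen and no risen window, and the palindromic CLEAR motif of lysosomal genes in neither, of 27 and 66 in all.

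**Figure D2:**
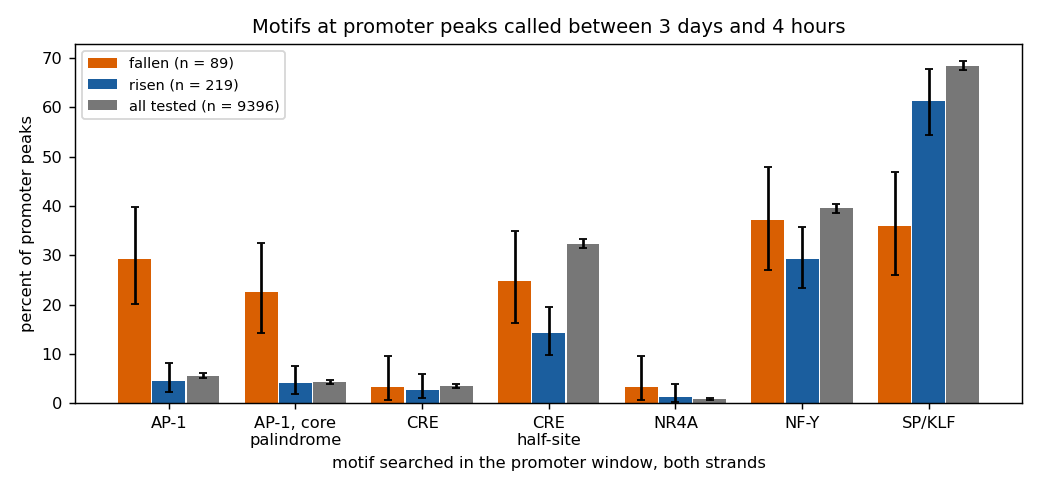
Percent of promoter peaks whose window holds each motif (vertical axis) for fallen (89), risen (219) and all tested (9396) promoter peaks; error bars are exact 95% binomial intervals. The AP-1 bar of the fallen set (29.2%) stands above those of the risen (4.57%) and of all (5.58%), and its SP/KLF bar (35.96%) is below the others.

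Other fallen promoters with an AP-1 match included Cd68 (from 11.2 and 12.0 to 8.32 and 7.04 CPM), which encodes a lysosomal glycoprotein of macrophages, and Tfe3, a transcription factor of lysosomal genes (from 14.2 and 11.5 to 8.14 and 7.60). Ecm1, for an extracellular matrix protein, went from 30.7 and 29.4 to 22.5 and 22.8. They were picked for their function after their values were seen. Over the 26 windows the log2 changes ran from −1.67 (Glyat) to −0.37 (Hal).

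Most of the largest single falls went back towards the control level, and 1 of the 10 lay at a gene end. By the rule for named peaks, the 10 largest falls among well-covered peaks were assigned to Dhx40, Nampt, Lias, Cux1, Sppl3, Qsox1, Synpo2, Zdhhc21, Angptl4 and Egfr. The peak nearest to Dhx40, an RNA helicase gene (chr11:86810427-86811275), held 16.4 and 15.4 CPM at 4 hours and 2.36 and 2.22 at 3 days (log2 change −2.79, SE 0.24, adjusted p = 6.52e-15). The controls had 1.62 and 1.82 CPM, and the rosiglitazone libraries 7.36 and 8.15. At Lias, the gene of lipoic acid synthase, a gene-end peak (chr5:65409320-65410993) went from 22.6 and 21.3 to 3.36 and 4.04 CPM (−2.58, SE 0.20, adjusted p = 5.54e-16), with 4.44 and 2.81 in the controls.

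Angptl4 encodes a secreted inhibitor of lipoprotein lipase, the enzyme that feeds fatty acids into adipocytes. A peak 7148 bases from the gene (chr17:33788723-33789297) held 21.8 and 22.9 CPM at 4 hours. It held 5.59 and 5.65 at 1 day and 5.01 and 4.11 at 3 days (−2.28, SE 0.19, adjusted p = 3.24e-15), and 3.53 and 2.81 in the controls. Most of that fall had happened by 1 day. A peak 35193 bases from Egfr, the receptor of epidermal growth factor (chr11:16716288-16717010), went from 11.4 and 9.42 to 2.24 and 2.06 CPM (−2.26, SE 0.28), with 0.808 and 0.661 in the controls.

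Nampt, the rate-limiting enzyme of NAD+ salvage, had calls in both directions. A peak in its body (chr12:32848143-32848591) fell from 8.94 and 9.78 to 1.95 and 0.791 CPM (−2.71, SE 0.33, adjusted p = 5.62e-09). A peak 3557 bases outside it (chr12:32856926-32857512) rose from 6.05 and 6.10 to 16.2 and 13.8 (1.31, SE 0.17, adjusted p = 1.61e-08), with 22.7 and 25.02 in the controls. Opening and closing thus lay within 10 kb of each other.

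The remaining 5 named falls were in or near Cux1, a homeobox factor, Sppl3, an intramembrane protease, Qsox1, a disulfide-forming oxidase, Synpo2, an actin-binding protein, and Zdhhc21, a palmitoyltransferase. Their log2 changes ran from −2.55 (Cux1) to −2.32 (Zdhhc21). At Synpo2 the 4-hour libraries differed, with 7.43 CPM in S3 and 2.96 in S4 against 0.826 and 1.11 at 3 days. At Cux1 the 3-day level of 1.30 and 1.11 CPM was below the controls (2.62 and 5.53) as well as below 4 hours (7.03 and 7.24).

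The 10 largest rises were assigned to Eml6, Ranbp10, Coro1c, Ddr1, Maml1, Cdh6, Mmp2, Klf15, Robo3 and Bcl7a. Ranbp10 encodes a Ran-binding protein, and a peak in its body (chr8:105773447-105773872) went from 1.38 and 2.72 to 10.7 and 12.4 CPM (2.47, SE 0.24, adjusted p = 1.86e-12). The controls had 10.6 and 11.9. In the body of Maml1, a coactivator of Notch (chr11:50258322-50258727), the level went from 1.91 and 1.87 to 8.73 and 9.97 (2.30, SE 0.24), with 9.39 and 8.51 in the controls. Both sites were thus closed at 4 hours and near the control level at 3 days. A gene-end peak of Coro1c, an actin-binding coronin (chr5:113842831-113843365), did likewise, from 1.25 and 2.05 to 8.26 and 9.26 CPM against 6.86 and 6.69 in the controls.

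Other risen peaks ended above control. Ddr1 is a collagen receptor kinase, and a peak 4693 bases from it (chr17:35709434-35710255) held 2.10 and 2.78 CPM at 4 hours, 10.1 and 14.6 at 3 days, and 4.64 and 7.19 in the controls. In the body of Cdh6, a cadherin (chr15:13046829-13047526), the level was 1.51 in both 4-hour libraries, 4.54 in S7 and 10.3 in S8, and 2.02 and 1.98 in the controls. The 3-day libraries differed from each other there by more than S7 did from 4 hours. Mmp2, a gelatinase that cleaves basement membrane collagen, had a gene-end peak (chr8:92825858-92826454) that went from 1.84 and 1.75 to 8.85 and 8.23 CPM (2.25, SE 0.25, adjusted p = 3.36e-10). It was already at 9.22 and 7.33 at 1 day, and the controls had 5.15 and 4.54. Klf15, a zinc finger factor of adipocytes and metabolism, had a peak 17304 bases away (chr6:90509107-90509350) that rose from 1.05 and 0.906 to 3.89 and 5.30 (2.21, SE 0.34). The calls on all 20 named peaks held in the 10 settings tried, with adjusted p up to 0.0215.

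**Figure D3:**
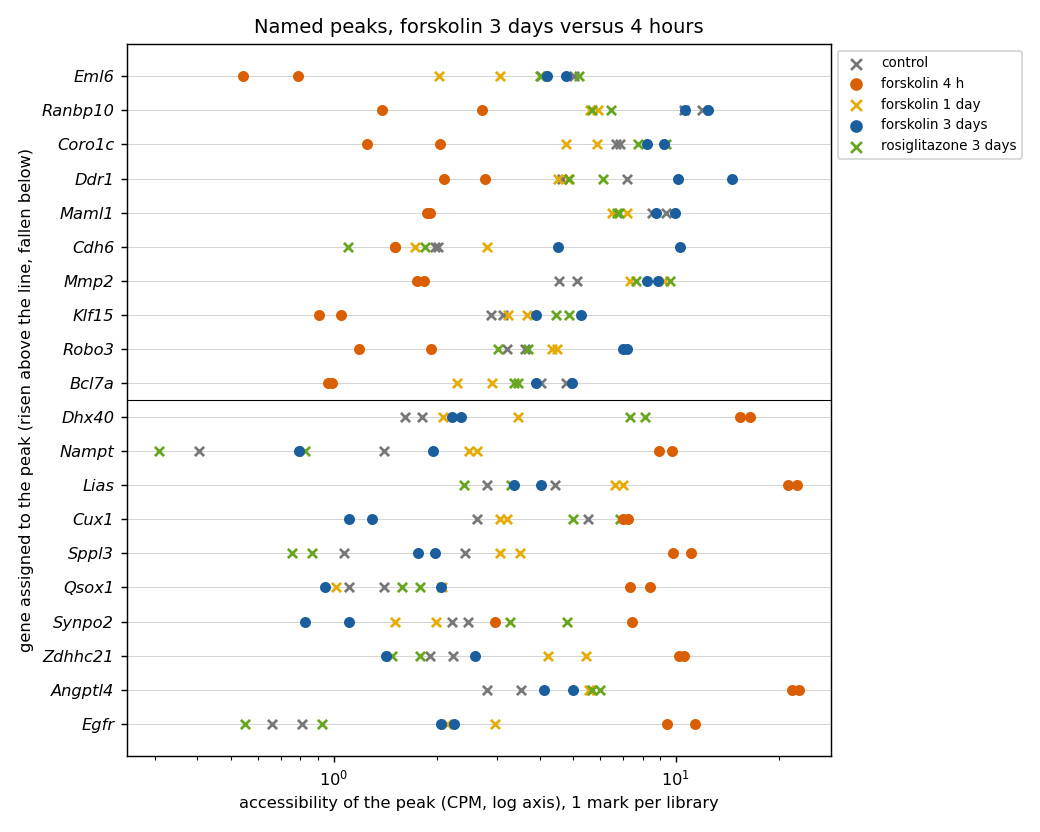
CPM (horizontal log axis) of the 20 named peaks, 1 mark per library, risen peaks above the line and fallen ones below it. The 4-hour libraries (orange) are separate from the 3-day libraries (blue) at every peak, because the naming rule required it, and the controls (grey) lie nearer to 3 days than to 4 hours at most of them.

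Each gene was also given the sum of its peaks: those at its ends, in its body, or outside genes with it as the nearest within 50 kb. Of 17140 genes tested, 895 fell (5.22%) and 641 rose (3.74%), with 67 and 60 at least 2-fold. The gene calls leaned on single libraries more than the peak calls did. Without S3, 243 fell and 138 rose, without S4 478 and 280, and with the 4 compared libraries alone in the fit 276 and 260. Without S7 the balance turned, with 1065 fallen and 1626 risen.

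Among genes with at least 3 tested peaks, the largest falls were Krt20, Anxa10, Mptx1, Negr1 and Tgm3. Krt20 encodes an epithelial keratin, and it went from 7.36 and 8.27 CPM at 4 hours to 1.65 and 0.554 at 3 days (log2 change −2.74, SE 0.36, adjusted p = 6.53e-05), with 1.51 and 1.73 in the controls. All 3 of its peaks fell. Anxa10, an annexin gene, went from 9.66 and 8.33 to 2.12 and 3.01 (−1.83, SE 0.26). Mptx1, a pentraxin gene, went from 25.6 and 21.4 to 7.85 and 7.91 (−1.57, SE 0.16), but with assignment limited to peaks within 10 kb its change was 0.02 (adjusted p = 0.986). Negr1, a neuronal adhesion gene, fell by 1.42 (SE 0.35) on the log2 scale, and Tgm3, an epidermal transglutaminase gene, by 1.40 (SE 0.17). At Krt20, S7 lay between the controls and S8 below both.

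The largest rises were Togaram2 (1.41, SE 0.24), Sycp3 (1.27, SE 0.27), Serpina3i (1.18, SE 0.19), Tekt5 (1.17, SE 0.19) and Mmrn2 (1.10, SE 0.14). Togaram2 encodes a TOG-domain protein, and it went from 3.48 and 3.32 CPM at 4 hours to 9.67 and 8.31 at 3 days, with 8.33 and 7.69 at 1 day, against 5.05 and 3.22 in the controls. Serpina3i had the same course, from 7.63 and 5.98 to 17.8 and 12.7, with 15.9 and 16.6 at 1 day. Mmrn2 is an extracellular matrix protein of vessels, and it went from 12.9 and 16.1 to 30.2 and 32.1, with 26.9 and 36.5 in the controls. Sycp3, of the meiotic chromosome axis, and Tekt5, of sperm flagella, likewise had been below control at 4 hours. The calls on Sycp3 and Negr1 ended without S3 (adjusted p 0.0528 and 0.189), and that on Negr1 without S7 (0.0599). That on Tgm3 ended with assignment within 10 kb (0.174) and that on Tekt5 with gene-end peaks only (0.418).

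Of 20 immediate-early genes, 5 fell and none rose, 25% against 5.22% of all genes, and their median log2 change was −0.11 against 0.01 over all genes. Ier3, an early-response gene that protects cells from apoptosis, had the most regular fall, from 246 and 235 CPM to 136 and 149 (−0.76, SE 0.06, adjusted p = 3.58e-07), against 140 and 147 in the controls. Of its 11 peaks 8 fell, though some of these calls ended without S3. The most changed (chr17:35776646-35777601), 44112 bases away, went from 50.8 and 54.1 to 22.7 and 21.3 CPM (−1.25, SE 0.13, adjusted p = 2.31e-11). Both gene-end peaks of Ier3 fell too, by 0.65 and 0.77 on the log2 scale.

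Fosl1, the gene of the AP-1 protein Fra-1, fell from 79.2 and 71.2 to 60.2 and 59.3 CPM (−0.33, SE 0.09, adjusted p = 0.0274) and was still above the 42.3 and 38.5 of the controls. Nr4a1 fell by 0.24 (SE 0.06, adjusted p = 0.0191), Egr1, a zinc finger factor, by 0.27 and Per1, a clock repressor that cAMP induces, by 0.19. Fos itself did not pass, at 184 and 189 against 185 and 213 CPM (0.09, SE 0.07, adjusted p = 0.478), nor did Junb (0.22), Jund (0.16), Fosb (0.05) or Atf3 (0.02). The list of immediate-early genes thus held members without a call on both sides of 0. The calls on Fosl1, Nr4a1, Egr1 and Per1 ended without S3, those on Nr4a1, Egr1 and Per1 also without S4 and without S7, and all 4 with the 4 libraries alone.

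Of 14 genes of the CREB axis 1 fell (7.14%, near the 5.22% of all genes) and none rose. It was Sik3, a salt-inducible kinase that protein kinase A inhibits, from 235 in both 4-hour libraries to 196 and 175 CPM (−0.34, SE 0.06, adjusted p = 0.00108). Crem, which encodes CREB-like activators and the repressor ICER, had a value of −0.20 (SE 0.09, adjusted p = 0.193). A peak in its body (chr18:3280420-3281475) did fall, from 22.7 and 21.4 to 14.3 and 12.2 CPM (−0.73, SE 0.15, adjusted p = 0.000294), towards the 11.1 and 9.99 of the controls.

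The phosphodiesterase genes that fell remained above control. These enzymes end the cAMP signal. Of 18 tested, 4 fell (Pde4d, Pde10a, Pde1a and Pde4b) and 1 rose (Pde8b, named after its value was seen), which is 22.2% against 5.22% of all genes and 5.56% against 3.74%. Pde4d, a cAMP-specific enzyme, went from 469 and 453 CPM at 4 hours to 356 and 363 at 3 days, with 382 and 373 at 1 day (−0.36, SE 0.05, adjusted p = 6.53e-05), against 285 and 273 in the controls. Pde10a went from 389 and 392 to 310 and 313 (−0.33, SE 0.05), with 250 and 256 in the controls. Pde1a, of the calcium-regulated class, went from 104 in both libraries to 78.7 and 70.1 (−0.48, SE 0.08), with 53.7 and 58.1. In these 3 genes both 3-day libraries lay between control and 4 hours. Pde8b, a high-affinity cAMP enzyme, moved the other way, from 44.8 and 43.0 to 65.9 and 56.3 (0.48, SE 0.09, adjusted p = 0.00189), against 45.3 and 44.8 in the controls.

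Pde4b fell by only 0.24 (SE 0.07, adjusted p = 0.036), from 180 and 160 to 147 and 141 CPM, with its peaks going both ways: 11 of 37 fell and 3 rose. Its peak with the smallest p-value opened (chr4:102493868-102494871), from 6.84 and 7.67 to 14.9 and 14.3 CPM (1.01, SE 0.17, adjusted p = 1.04e-05), and was already at 13.8 and 14.2 at 1 day and at 8.38 and 7.76 in the controls. In the same gene body a peak (chr4:102513954-102514342) closed from 9.40 and 6.94 to 3.01 and 2.77 (−1.49, SE 0.27). The summed level of the 18 phosphodiesterase genes was 1989 to 2033 CPM at 4 hours, 1782 to 1784 at 3 days and 1558 to 1600 in the controls. The gene call on Pde4b ended without S3 (adjusted p 0.451), without S8 (0.0709), with the 4 libraries alone and with assignment within 10 kb.

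Of 15 genes of protein kinase A and its anchors, Akap13, an anchor that also activates small GTPases, fell (−0.27, SE 0.06) and Prkar1b, a regulatory subunit, rose (0.25, SE 0.07). That is 6.67% each way, near the 5.22% fallen and 3.74% risen over all genes. Of 18 tested genes of adrenergic receptors, cyclases and G proteins, 1 rose (5.56%, against 3.74% of all genes) and none fell (against 5.22%). DESeq2 also called 1 risen and none fallen, and at an unadjusted p below 0.05 there were 2 higher and 6 lower. Adrb3, the main β receptor of mouse fat, did not pass, at 11.1 and 14.7 CPM at 4 hours and 10.97 and 12.2 at 3 days (−0.17, SE 0.15, adjusted p = 0.545), against 26.2 and 26.9 in the controls. Without S4 its value was 0.05. The calls on Akap13 and Prkar1b ended without S3 and with the 4 libraries alone, and that on Prkar1b also without S4 and without S7.

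Some thermogenic genes passed. Of 29 tested, 3 rose (10.3% against 3.74% of all genes) and none fell: Ppara, a nuclear receptor of fatty acid oxidation (0.31, SE 0.06, adjusted p = 0.00119), Acot11, a thioesterase (0.32, SE 0.07), and Fabp3, a fatty acid binding protein (0.53, SE 0.16). Ppara went from 195 and 208 to 247 and 250.7 CPM, with 262 and 274 in the controls. Ucp1, the uncoupling protein of brown fat, held 7.23 and 6.46 CPM over 3 peaks at 4 hours and 7.08 and 9.26 at 3 days (0.24, SE 0.20, adjusted p = 0.512), and the groups overlapped. The controls had 4.44 and 3.63. For Ucp1, S7 lay between the 4-hour libraries and S8 above both.

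A peak 4498 bases from Ucp1 (chr8:83285364-83285850) was called, from 1.91 and 1.69 to 3.01 and 4.35 CPM (1.02, SE 0.34, adjusted p = 0.0404). That call ended without S3 (adjusted p 0.140), without S4 (0.196), without S8 (0.328) and with DESeq2. Ppargc1a, the coactivator that drives mitochondrial biogenesis, held 299.9 and 308 CPM at 4 hours and 296 and 277 at 3 days (−0.09, SE 0.06, adjusted p = 0.418), above the 216 and 244 of the controls. Close to the shares over all tested peaks (6.75% fallen and 4.38% risen), 4 of its 52 peaks fell and 2 rose. The most changed (chr5:51498179-51498539) went from 3.75 and 3.86 to 0.944 and 0.9495 CPM (−1.999, SE 0.43), while its gene-end peak (chr5:52115629-52116350) went from 13.9 and 14.2 to 18.5 and 22.5 (0.54, SE 0.14, adjusted p = 0.00703). The latter call ended without S3 (0.0821), S4 (0.05004) or S8 (0.150). With gene-end peaks only, Ppargc1a was higher at 3 days (0.54, adjusted p = 0.0452), so its direction depended on which peaks were counted.

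Of 26 adipocyte identity genes 2 rose and 3 fell (7.69% and 11.5%, against 3.74% and 5.22% of all genes). Pparg, the master regulator of fat cells, held 219 and 230 CPM at 4 hours and 203 and 215 at 3 days (−0.10, SE 0.06, adjusted p = 0.317). Adipoq, which encodes adiponectin, held 68.8 and 71.3 and then 69.1 and 63.5 (−0.08, SE 0.09), and Lep, the leptin gene, 65.3 and 66.8 and then 70.5 and 70.3 (0.09, SE 0.09). None of these 3 passed. Single peaks did: one in Pparg (chr6:115420916-115421311) from 8.15 and 9.42 to 5.31 and 4.19 CPM, and one 9109 bases from Adipoq (chr16:23167077-23167535) from 17.9 and 18.3 to 12.3 and 9.18. At the Lep gene end (chr6:29073526-29074436) the level went from 3.29 and 4.41 to 7.02 and 5.93, against 10.5 and 12.2 in the controls. The Pparg peak lost its call without S4 (0.0755) and without S8 (0.0813), and the Lep peak without S3 (0.265) and without S7 (0.161).

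Fabp4, the adipocyte fatty acid binding protein, fell from 164 and 178 to 141 and 149 CPM (−0.24, SE 0.06, adjusted p = 0.0137), the level of the controls, while the rosiglitazone libraries had 325 and 321. Adipor2, an adiponectin receptor, fell by 0.28 (SE 0.07) and Retn, the resistin gene, by 0.39 (SE 0.11). Klf15 rose (0.38, SE 0.08, adjusted p = 0.00342) with 5 of its 16 peaks and no fall among them. Cfd, the gene of the adipokine adipsin, rose from 20.8 and 24.4 to 31.1 and 35.3 CPM (0.55, SE 0.12, adjusted p = 0.00387), against 40.8 and 39.3 in the controls.

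Of 19 lipolysis and lipid droplet genes, 4 fell (21.1%, against 5.22% of all genes) and 1 rose (5.26%, against 3.74%). Plin2, a coat protein of lipid droplets, went from 162 and 159 to 112 and 119 CPM (−0.47, SE 0.07, adjusted p = 0.000165), with 93.4 and 101 in the controls, and 5 of its 24 peaks fell. Hilpda, an inhibitor of the lipase ATGL, went from 127 and 132 to 86.8 and 96.7 (−0.50, SE 0.08). Cav1, the caveola protein, went from 146 and 140 to 106 and 107 (−0.43, SE 0.07), below the 135 and 122 of the controls. Abhd5, the activator of ATGL, fell by 0.21 (SE 0.06), and G0s2, another ATGL inhibitor, rose by 0.40 (SE 0.11). The members that moved therefore include both inhibitors and an activator of the same lipase.

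Of 20 lipogenic genes 3 rose (15.0%, against 3.74% of all genes) and none fell, and their median log2 change was 0.03 against 0.01 over all genes. Mlxipl, which encodes the glucose sensor ChREBP, went from 31.2 and 34.7 to 51.0 and 44.9 CPM (0.54, SE 0.11, adjusted p = 0.00227), with 40.3 and 49.7 in the controls. Srebf1, the sterol-regulated activator of lipogenesis, rose by 0.34 (SE 0.08) and Acacb, an acetyl-CoA carboxylase, by 0.25 (SE 0.08). Of 22 glucose and insulin genes 4 fell (18.2%, against 5.22% of all genes, and 2 in DESeq2), among them Hk2, a hexokinase (−0.28), Slc2a1, the basal glucose transporter (−0.21), and Irs2 (−0.20). At the shares over all genes (3.74% risen and 5.22% fallen) lists of 18 and 21 genes would hold few calls. None of 18 fatty acid oxidation genes passed in edgeR or in DESeq2, with a median of 0.04, and at an unadjusted p below 0.05 there were 2 higher and 3 lower. None of 21 respiratory chain genes passed in either tool, with a median of 0.03, and 2 were higher and 2 lower at that unadjusted level. Many of these gene calls rested on single libraries. Without S3 the calls on Acacb, Acot11, Adipor2, Cfd, Fabp3, G0s2, Hk2, Mlxipl, Ppara, Retn, Slc2a1, Srebf1, Abhd5 and Irs2 ended (adjusted p 0.0502 to 0.310). Without S4 those on Abhd5, Acacb, Acot11, Adipor2, Fabp3, Fabp4, Irs2, Klf15, Retn and Slc2a1 ended (0.0559 to 0.255). Without S8 those on Acacb, Fabp3 and Srebf1 ended (0.0749 to 0.232), and without S7 those on Abhd5, Irs2 and Retn (0.0662 to 0.149). Plin2 kept its call in every setting, and Hilpda and Cav1 lost theirs with gene-end peaks only.

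Of 24 extracellular matrix genes 7 fell (29.2%, against 5.22% of all genes) and none rose, with a median of −0.11, and DESeq2 called 6 fallen. Collagen IV chain Col4a1, of basement membranes, went from 369 and 366 to 295 and 286 CPM (−0.34, SE 0.05, adjusted p = 0.000163), with 281 and 296 in the controls. The collagen VI genes Col6a1, Col6a2 and Col6a3 fell by 0.29, 0.29 and 0.30, and Col3a1, Sparc and Postn by 0.36, 0.19 and 0.38. Of 24 actin and SRF/YAP genes, Cald1, an actin regulator, fell by 0.33 (SE 0.06) and Wwtr1, which encodes TAZ, by 0.26 (SE 0.06). That is 8.33% fallen, against 5.22% of all genes, and none rose. Of 18 progenitor genes, Zfp423, a determinant of preadipocytes, rose from 248 and 256 to 309 and 334 CPM (0.35, SE 0.05, adjusted p = 0.000255), and Prrx1, a mesenchymal factor, fell by 0.38 (SE 0.07). These progenitor calls were 5.56% each way, near the 3.74% risen and 5.22% fallen over all genes. Without S3 the calls on Col3a1, Postn, Prrx1, Sparc and Wwtr1 ended (0.0502 to 0.335). Those on Col6a1, Col6a2, Postn, Sparc and Wwtr1 ended without S4 (0.0580 to 0.117), and those on Col3a1, Postn and Sparc without S8 (0.0713 to 0.137). With gene-end peaks only, all of these falls lost their calls. The log2 changes of Col6a1 (−0.41), Col6a2 (−0.29) and Col6a3 (−0.52) were then similar or larger, while that of Col4a1 was −0.20 and that of Sparc −0.083.

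Among 25 NF-kB and inflammation genes 4 fell (16%, against 5.22% of all genes) and 1 rose (4%, near the 3.74% of all genes). Ptgs2, the inducible cyclooxygenase, went from 114 and 97.8 to 65.9 and 71.5 CPM (−0.63, SE 0.09, adjusted p = 0.000121), close to the 65.3 and 61.2 of the controls, and 6 of its 15 peaks fell. Most of the 6 Ptgs2 peak calls ended without S3. Nfkb1 fell by 0.29 (SE 0.06), Lif, a cytokine gene, by 0.25 (SE 0.08) and Cxcl1, a chemokine gene, by 0.22 (SE 0.07). Lcn2, which encodes lipocalin 2, rose on its single peak from 4.01 and 5.19 to 8.61 and 7.60 (0.82, SE 0.21). In the interferon list of 20 genes, 1 rose and 1 fell, close to the shares over all genes. Irf1 rose from 156 and 165 to 212 and 226 CPM (0.44, SE 0.06, adjusted p = 8.37e-05), with 231 and 246 in the controls, and Oasl1 fell by 0.51 (SE 0.10).

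Of 20 clock genes 2 rose and 4 fell (10% and 20%, against 3.74% and 5.22% of all genes). Hlf, a PAR bZIP factor, rose from 79.1 and 87.3 to 108 and 114 CPM (0.41, SE 0.08, adjusted p = 0.00137), with 121 and 129 in the controls. Rorb (−0.40), Ciart (−0.34), Arntl, the gene of BMAL1 (−0.23), and Per1 fell. Harvest hours are not given, so time of day and treatment time cannot be told apart for these genes.

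Of 16 hypoxia and angiogenesis genes 4 fell (25%, against 5.22% of all genes) and 2 rose (12.5%, against 3.74%). Egln3, an oxygen-sensing hydroxylase, went from 119 and 124 to 88.1 and 91.5 CPM (−0.44, SE 0.08), but with peaks within 10 kb only its value was −0.18 (adjusted p 0.278) and with gene-end peaks only −0.13 (0.772). Fgf2 fell by 0.31 (SE 0.06), Kdr, a VEGF receptor, by 0.38 and Slc2a1 by 0.21. Angpt2 (0.25) and Egln1 (0.21) rose. Uvrag (−0.29) and Gla (−0.86, on 1 peak) fell of 19 lysosome genes, and Chac1, a glutathione-degrading enzyme of the unfolded protein response, rose (0.40) as the only one of 17 genes of that response called. The shares were 10.5% fallen for lysosome genes and 5.88% risen for that response, against 5.22% and 3.74% of all genes. Of the genes of inflammation, interferon, clock, hypoxia, lysosome and protein folding, those that lost their calls without S3 were Angpt2, Arntl, Chac1, Ciart, Cxcl1, Egln1, Gla, Hlf, Lcn2, Lif, Nfkb1, Oasl1, Rorb and Uvrag (0.0559 to 0.503). Without S4 they were Angpt2, Arntl, Chac1, Ciart, Cxcl1, Egln1, Gla and Lif (0.0501 to 0.243), without S7 Cxcl1 and Lcn2 (0.0676 and 0.0699), and without S8 Egln1 and Gla (0.110 and 0.154). Ptgs2 and Fgf2 kept theirs in all settings.

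**Figure D4:**
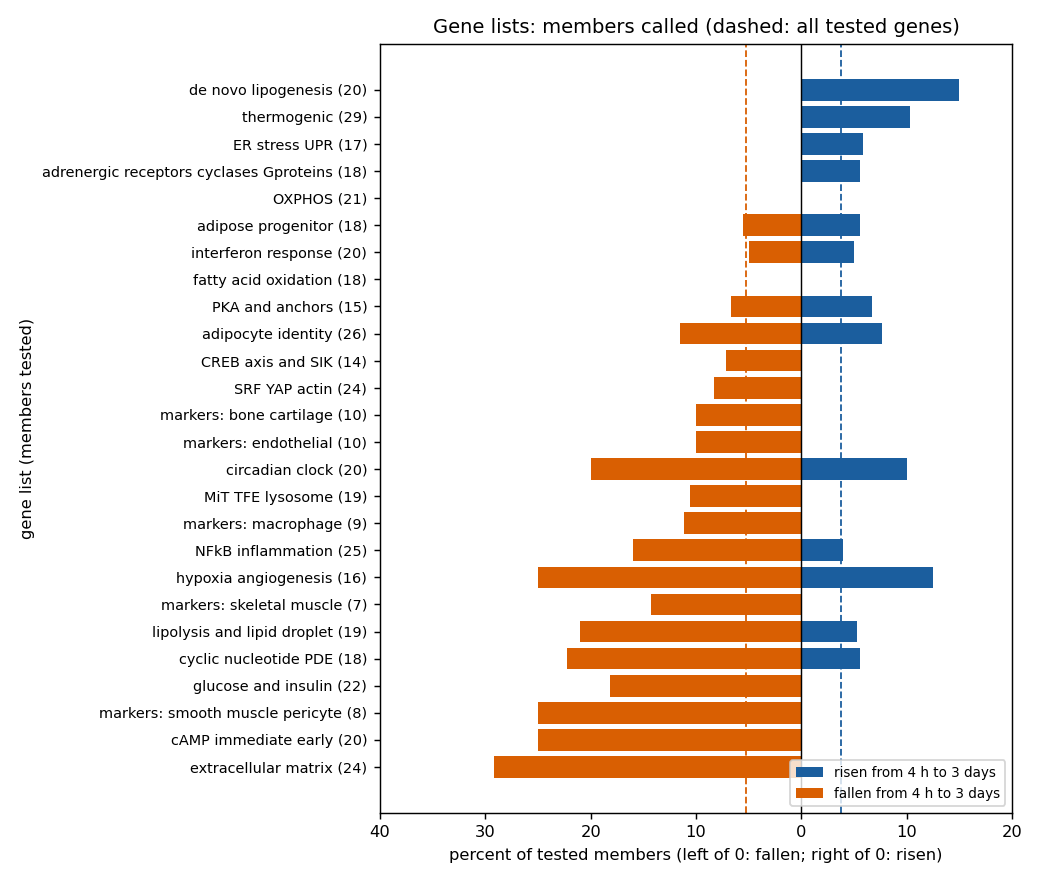
Percent of the tested members of each of 26 gene lists that fell (left of 0) or rose (right of 0) from 4 hours to 3 days, with the number tested in brackets; dashed lines are the shares over all tested genes (5.22% and 3.74%). The extracellular matrix list reaches 29.2% fallen and the lipogenesis list 15.0% risen, and the lists of fatty acid oxidation and of the respiratory chain have no bar.

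Markers of other cell types were checked beside the adipocyte genes, whose summed level over 26 genes was 2685 to 2801 CPM in the 4-hour libraries and 2686 to 2805 in the 3-day libraries. The macrophage list had 9 of 12 genes with a tested peak, and none of these was at 0 in any of the 4 libraries. Adgre1, C1qa and C1qb, all defining for macrophages, had no tested peak. Its sum was 187 to 191 CPM at 4 hours and 178 to 179 at 3 days. Csf1r, the receptor of macrophage colony-stimulating factor, was the only member called (11.1% of the 9, against 5.22% fallen over all genes). It fell from 23.6 and 21.8 to 13.6 and 11.8 CPM (−0.83, SE 0.14, adjusted p = 0.000465). Most of it came from a peak in the gene body (chr18:61127401-61128066), at 12.9 and 13.4 and then 5.78 and 4.67.

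Of the vascular lists, Kdr was the only one of 10 endothelial genes called, and Rgs5 (−0.67, SE 0.13) and Notch3 (−0.39, SE 0.10) were called of 8 smooth muscle and pericyte genes. Pax3 (−0.36) was called of 7 tested skeletal muscle genes, with Myod1, Myf5 and Myh4 without a tested peak, and Runx2 (−0.28) of 10 bone and cartilage genes. All of these fell, which is 10% of endothelial, 25% of smooth muscle, 14.3% of skeletal muscle and 10% of bone and cartilage genes. Over all genes 5.22% fell. The summed levels were 354 to 365 CPM at 4 hours and 322 to 344 at 3 days for endothelial genes and 247 to 272 and 223 to 239 for smooth muscle. They were 144 to 149 and 128 to 131 for skeletal muscle, and 582 to 609 and 506 to 525 for bone and cartilage. These sums were lower at 3 days in all 5 lists, and their part in the falls described above was not tested. The control sums were 318.2 to 331.5 CPM for endothelial, 119.5 to 121.7 for skeletal muscle and 501.1 to 514.1 for bone and cartilage genes. In these lists the controls overlapped the 3-day sums or lay below them, and the 4-hour sums were above control. Macrophage (186.0 to 189.4) and smooth muscle controls (243.5 to 248.8) overlapped the 4-hour sums and lay above the 3-day sums. Without S3 the calls on Kdr, Notch3, Pax3, Rgs5 and Runx2 ended (0.0594 to 0.428), and that on Pax3 ended without S4 (0.0654).

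Some loci held many called peaks, against 6.75% fallen and 4.38% risen over all tested peaks, and they were picked for these counts. Lpp, which encodes an adhesion plaque protein, had 18 fallen and no risen peaks of 82 tested (22.0% fallen), Ank3, a membrane-skeleton anchor, 15 of 61 (24.6%) with 1 risen, Pakap, an anchoring protein locus, 14 of 63 (22.2%) with 3 risen, and Frmd4a, a scaffold gene, 13 of 58 (22.4%) with 1 risen. Pde4b followed with its 11. Many of the 18 peak calls at Lpp ended without 1 of the libraries. At these 4 loci the summed level fell by 0.34 to 0.38 on the log2 scale, and for Lpp it went from 537 and 525 to 426 and 406 CPM, with 409.6 and 409.5 in the controls. Loci with many risen peaks included Gse1 (13 of 72, or 18.1%), Sfi1 (11 of 24, or 45.8%), Cmip (9 of 43, or 20.9%) and Arhgef10l (8 of 26, or 30.8%). Arhgef10l, a guanine nucleotide exchange factor, rose from 114 and 121 to 164 and 153 CPM (0.43, SE 0.07, adjusted p = 0.000227), with 180 and 187 in the controls.

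Sfi1, a centrosome gene, held 686 and 733 CPM at 4 hours, 790 in S7 and 930 in S8 (0.28, SE 0.06), with 881 and 872 in the controls. The libraries with most Sfi1 were those where the 13 peaks with the highest counts took most. These took 6.01% of S1, 5.22% of S2 and 5.29% of S8, and 3.58% to 4.14% of the others. A peak among these 13 (chr11:3123543-3124210) lies outside Sfi1 (chr11:3131850-3203347) but close to it. By the assignment rule its counts may be part of the Sfi1 level, so the share and the level may not be independent. Whether the level of Sfi1 follows that share beyond this was not tested. The call on Sfi1 held with the high-count peaks left out. The call on Sfi1 ended without S8 (log2 change 0.15) and without S3 (0.23). The call on Gse1 (0.16) ended without S3, S4 or S8, and that on Cmip (0.19) without S3 or S4. With gene-end peaks only, Ank3, Arhgef10l, Cmip, Frmd4a, Gse1, Lpp and Pakap lost their calls (adjusted p 0.0716 to 0.975).

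Called peaks lay mostly away from genes' ends. Gene-end peaks were 13.5% of tested peaks, 10.5% of risen and 4.87% of fallen ones. Put per position, 2.44% of gene-end peaks fell and 3.40% rose, against 7.25% and 4.62% in gene bodies. Outside genes, 7.44% fell and 4.84% rose within 100 kb of a gene end, and 8.14% and 3.15% farther away. In these calls rises outnumbered falls at gene ends, with 546 against 391, and in no other class. The gene-end share depended on the libraries: without S7, gene-end peaks were 31.1% of the risen peaks, and without S8 8.41%. With the library factors taken from gene-end peaks alone, the balance at gene ends turned, with 395 risen and 489 fallen, among 3689 risen and 8486 fallen peaks in all.

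**Figure D5:**
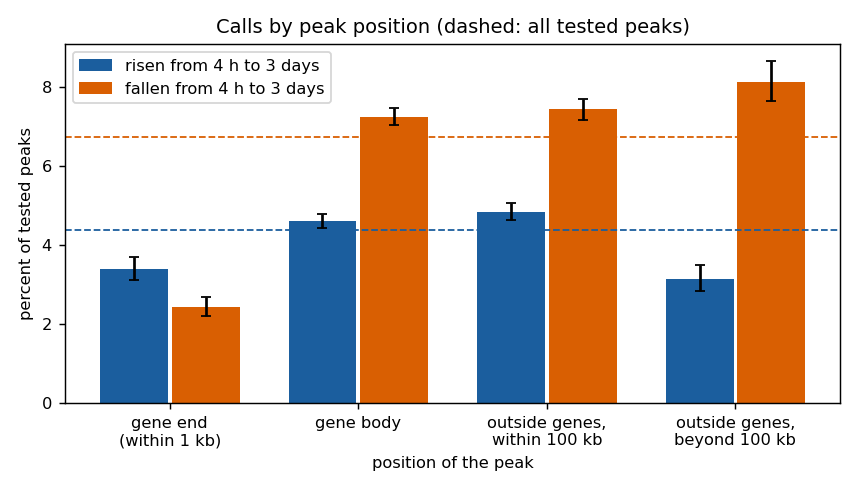
Percent of tested peaks that rose (blue) or fell (orange) in each of 4 position classes, with exact 95% binomial intervals; dashed lines are the shares over all tested peaks (4.38% risen and 6.75% fallen). At gene ends 3.40% rose and 2.44% fell, a balance that turned with library factors from gene-end peaks (395 risen and 489 fallen), and in the other 3 classes falls outnumber rises.

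Neighbouring peaks tended to share a direction. Among fallen peaks whose nearest tested neighbour lay within 10 kb, that neighbour had fallen in 15.8% and risen in 2.24%, against 7.30% and 4.70% over all tested peaks. Among risen peaks the neighbour had risen in 12.1% and fallen in 3.57%. Neighbours share local copy number and mappability as well as regulation. By chromosome, the share of fallen peaks ran from 5.03% on chromosome 7 to 8.87% on chromosome 3 and that of risen peaks from 2.81% on chromosome 13 to 6.41% on chromosome 8. Wide peaks of over 1000 bases differed from the rest in their balance, with 6.48% risen and 4.92% fallen.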

How the data were processed

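Chromatin accessibility (ATAC-seq, paired-end, 12 amplification cycles) was measured in 10 libraries of 5 groups with 2 libraries each. The authors deposited 1 table of whole-number counts per peak and library. Per the submitters' processing notes the tools were deepTools, featureCounts, MACS2, Picard, SAMtools, Bowtie2 and fastp, with the builds GRCm38 and mm10. Their versions, how peaks were merged over libraries, whether reads or fragments were counted and whether reads were shifted are not given in the sources used here. Counts in peaks ranged from 10410233 to 18935287 per library.

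From the deposited counts, edgeR 4.0.16 (R 4.3.3, limma 3.58.1) fitted 1 quasi-likelihood model to all 10 libraries, with TMM factors, filterByExpr and robust dispersion, and tested 3 days minus 4 hours of forskolin with Benjamini-Hochberg adjustment at 0.05. SE is the log2 change over the root of F. DESeq2 1.42.0 was an alternative. Peaks were assigned to protein-coding genes of RefSeq GRCm38.p6 (ends within 1 kb, then body, then nearest within 50 kb). Columns were tied to groups by their names. Lists, members and tests were chosen with earlier results of these data known. Named peaks were the 10 largest changes in each direction among called, separated peaks of at least median level, 1 per gene. Named genes were the 5 largest each way with at least 3 tested peaks, up to 3 called members per list with the smallest adjusted p, and 12 genes always given. Further called list members, members without a call and single peaks of named genes were named after their values were seen, as were the genes with most called peaks. The motif shares use promoter windows that a peak overlaps by at least 150 bases, 1 per peak, in place of the planned gene-end peaks, and the half-site and TGACTCA were added. Leaving out the high-count peaks, promoter-window peaks only, and the single-library settings for motifs, position and other groups were also added after seeing the data. The procedure was run on simulated counts, drawn with the same mean profile and the same spread for all libraries apart from the changes put in. That run cannot show how the procedure handles a pair such as S7 and S8, and no result here rests on it. No sequence outside the promoter windows was used. Some features are not reported here.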

Additional observations from a re-analysis of the deposited data

How the results depend on the processing

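No paired analysis was possible because the columns carry a group and a running library number and no labelled replicate number that pairs libraries across groups. Against 5214 risen and 8024 fallen peaks, DESeq2 gave 2411 and 4018, and leaving out 1 library at a time gave 2065 to 4538 and 3176 to 6435. Against 641 risen and 895 fallen genes, the 4 compared libraries alone gave 260 and 276, leaving out 1 library gave 138 to 1626 and 243 to 1065, gene-end peaks only 148 and 90, and promoter-window peaks only 36 and 16. Falls were 58.3% of the gene calls, but 39.6% without S7, 37.8% with gene-end peaks only and 30.8% with promoter-window peaks only. They were 60.6% of the peak calls, and 69.7% with library factors from gene-end peaks. The gene-end share of risen peaks (10.5%) was 12.4% with library size alone, 11.8% with trended offsets, 8.41% to 31.1% without 1 library and 7.98% with ends within 500 bases. That of fallen peaks (4.87%) was 5.61% with trended offsets, 4.27% with the 4 libraries, 4.47% to 6.28% without 1 library, 5.76% with factors from gene-end peaks and 2.74% within 500 bases. Fallen peaks that had risen at 1 day were 42.4% to 45.7% without 1 library. Risen peaks that had fallen at 1 day were 23.4% with library size alone, 19.7% with the 4 libraries and 21.7% to 36.9% without 1 library. The AP-1 share of fallen promoters was 17.7% with trended offsets and 15.4% to 46.2% without 1 library, and that of risen promoters 1.37% to 5.77%. Of 88 called named genes 16 kept their call in every setting, and all 20 named peaks did. The log2 change turned sign with gene-end peaks only for Ppargc1a (0.54), Fos (−0.18), Pparg (0.15), Adipoq (0.032), Cald1 (0.28), Hlf (−0.014), Oasl1 (0.29), Rorb (0.029), Prrx1 (0.31), Uvrag (0.0058), Akap13 (0.083), Wwtr1 (0.060), Nfkb1 (0.16), Kdr (0.035), Notch3 (0.58), Col3a1 (0.064), Slc2a1 (0.019), Angpt2 (−0.75), Abhd5 (0.23), Fabp3 (−0.12), Lpp (0.016), Ank3 (0.14) and Gse1 (−0.084). It also turned for Adrb3 without S4 (0.052, with −0.35 without S3 as the other end of its range), for Fos without S8 (−0.014, with 0.18 without S7 as the other end) and within 10 kb (−0.054), and for Mptx1 within 10 kb (0.015). Where fewer peaks or libraries entered, that is part of the setting, and otherwise the cause was not tested. Below the lower quartile of level, 1.49% of peaks were called risen and 2.84% fallen, and above the upper quartile 6.93% and 9.58%. Whether the lower shares at weak peaks come from depth was not tested.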
